A study of Mus musculus with 32 samples.

Results

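Skeletal muscle lies thinly under mouse skin and within the ear, and its RNA was low in HDM ears. Whether that low level came with signs of muscle wasting or of muscle repair was examined with 9 genes chosen by symbol. They were the myogenic regulators Myod1, Myog, Myf5, Myf6 and Pax7, the developmental myosin heavy chains Myh3 and Myh8, and the atrophy ubiquitin ligases Fbxo32 and Trim63. Each of the 9 symbols matched a single transcript cluster row among the 19505 symbols of the table. Expression had been measured on 32 Mouse Clariom D arrays from NC/Nga mice, inbred animals that readily develop dermatitis, with 8 arrays in each of 4 groups: HDM ear, sham ear, HDM back skin and sham back skin. The HDM mice were kept free of specific pathogens, and tissue was taken when the study ended as punches 8 mm across. The labels do not spell out HDM, describe the sham treatment, give ages or times, or say whether ear and back samples of the same number came from the same animal. Each array is a separate mouse sample within its group. A punch can hold varying amounts of muscle, and a fixed 100 ng of RNA was labelled for each array. Fewer muscle fibres, less RNA per fibre and a larger share of RNA from other cells therefore cannot be told apart here.

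Muscle stem cells, called satellite cells, carry the transcription factor Pax7. After injury they turn on Myf5 and Myod1, then Myog as they fuse, while Myf6 (also called MRF4) is the family member that adult fibres keep. Newly formed fibres pass through the embryonic myosin Myh3 and the perinatal myosin Myh8 before adult myosins such as Myh4 take over. Fbxo32 (atrogin-1) and Trim63 (MuRF1) mark muscle proteins for the proteasome, and both transcripts climb in most forms of muscle wasting, in large part through FoxO transcription factors.

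Promoter sequences were found in the RefSeq table (build GRCm38.p6) for 6 of the 9 genes, namely Myog, Myf5, Pax7, Myh3, Myh8 and Trim63. Those of both developmental myosins, of Trim63 and of Myog are shown because the results turn on how far genes of these classes moved together. Each run holds 250 bases before the annotated start and 50 from it onward, 5′ to 3′ on the gene's strand. Capitals mark matches to the E box CANNTG, which myogenic regulators bind and which reads the same on both strands, and to TGTTTAC, a FoxO-type core searched on both strands. The windows lie at chr11:67078050-67078349 (plus strand) for Myh3, chr11:67276874-67277173 (plus strand) for Myh8, chr4:134314870-134315169 (plus strand) for Trim63 and chr1:134289754-134290053 (plus strand) for Myog.
Myh3: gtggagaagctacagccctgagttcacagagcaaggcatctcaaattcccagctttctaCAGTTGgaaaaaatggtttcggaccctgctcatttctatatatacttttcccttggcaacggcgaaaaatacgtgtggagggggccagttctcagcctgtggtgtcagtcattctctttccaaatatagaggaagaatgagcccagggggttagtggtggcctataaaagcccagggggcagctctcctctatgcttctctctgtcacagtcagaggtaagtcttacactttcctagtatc
Myh8: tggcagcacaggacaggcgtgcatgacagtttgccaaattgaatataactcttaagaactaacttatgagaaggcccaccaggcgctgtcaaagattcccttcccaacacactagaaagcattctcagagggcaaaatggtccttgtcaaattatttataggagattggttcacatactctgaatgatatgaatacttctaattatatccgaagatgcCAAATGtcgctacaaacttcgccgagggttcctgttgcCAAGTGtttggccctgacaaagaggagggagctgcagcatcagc
Trim63: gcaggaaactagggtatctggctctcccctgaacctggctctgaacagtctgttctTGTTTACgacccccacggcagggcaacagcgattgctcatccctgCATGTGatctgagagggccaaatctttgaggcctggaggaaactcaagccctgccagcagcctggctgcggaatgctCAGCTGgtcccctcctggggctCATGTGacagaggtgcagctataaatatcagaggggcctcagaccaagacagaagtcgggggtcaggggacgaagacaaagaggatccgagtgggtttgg
Myog: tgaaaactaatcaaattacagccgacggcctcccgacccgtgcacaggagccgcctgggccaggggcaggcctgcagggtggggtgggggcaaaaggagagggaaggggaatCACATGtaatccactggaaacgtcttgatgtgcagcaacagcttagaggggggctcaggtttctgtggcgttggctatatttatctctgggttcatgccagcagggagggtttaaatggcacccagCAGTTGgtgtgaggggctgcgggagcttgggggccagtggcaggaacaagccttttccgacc
Of the promoters of this length in the table, 72.3% hold CANNTG and 3.65% hold TGTTTAC, so an E box alone sets none of these genes apart. The Trim63 window holds TGTTTAC 194 bases before the start and E boxes at 149, 72 and 50 bases before it, the middle of which is CAGCTG, a form found in 16.3% of promoters. Myh3 has its single E box 191 bases before the start, and Myog has its pair at 138 and 12 bases before it. Myh8 has an E box 32 bases before the start and another that begins 7 bases after it. These matches describe letters and not bound sites.

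Values are log2 expression levels deposited by the authors, and a difference of 1 would be a doubling if no rescaling followed their normalization, which the files do not settle. The background of an array was the median of its negative control rows and lay between 4.43 and 5.38. Of 32 mature muscle genes, 22 were above it on all 32 arrays. The mean of the 32 mature muscle genes was 8.12 ± 0.76 in HDM ear, against 10.76 ± 0.72 in sham ear, and 10.50 ± 0.36 in HDM back skin, against 10.75 ± 1.55 in sham back skin (SD, n = 8 each). The basal keratin Krt5 averaged 18.98 in HDM ear and 19.02 in sham ear. It averaged 19.08 in HDM back skin and 18.92 in sham back skin, so it does not tell the sites apart. The suprabasal keratin Krt10 averaged 19.83 in HDM ear and 19.82 in sham ear, and Krt1 averaged 19.38 in HDM ear and 17.32 in sham ear. Of the 5 measured keratinocyte markers, 3 were called higher in HDM ear (limma), as were 16.4% of all rows. The median ear difference of the 5 markers was 0.41, and the stress keratin Krt16 stood out at 10.37. All 7 measured neutrophil markers rose in HDM ear, with a mean of 13.93 ± 2.43 against 5.12 ± 0.54 in sham ear, all 7 measured macrophage markers rose there, and all 7 measured white adipocyte markers fell. Their part in the results below was not tested. Within HDM ear the neutrophil mean was 15.6 to 16.6 in mice 1, 2, 5 and 7 and 10.9 to 12.7 in mice 3, 4, 6 and 8, so no correlation across the 8 HDM ears is given. In sham back skin, mice 1 and 2 stood apart, with neutrophil means of 9.93 and 10.27 against 6.22 to 7.78 in the other mice and hair follicle means of 8.31 and 12.76 against 13.70 to 16.79. Differences given below that use sham back skin are therefore also given without them where the value moved by over 1.5 times or the call changed.

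HDM against sham in ear asked whether wasting or repair genes were raised where muscle RNA was low. No gene of the 9 was higher in HDM ear. Myh3, Myh8, Fbxo32 and Trim63 were lower at an adjusted p under 0.05 (limma, Benjamini-Hochberg over 22206 rows), and the other 5 lay below background in both ear groups. Over all rows, 15.5% were lower and 16.4% higher by the same rule, 31.9% in all. For 3 of the 4, every HDM ear was below every sham ear, as for 2.66% of all rows. In back skin, none of the 9 passed, where 14.7% of all rows did (limma; 0 of the 9 also at an unadjusted p under 0.05). The plot of all 9 genes by array shows this contrast between the genes that were detected and those that were not.

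**Figure D1:**
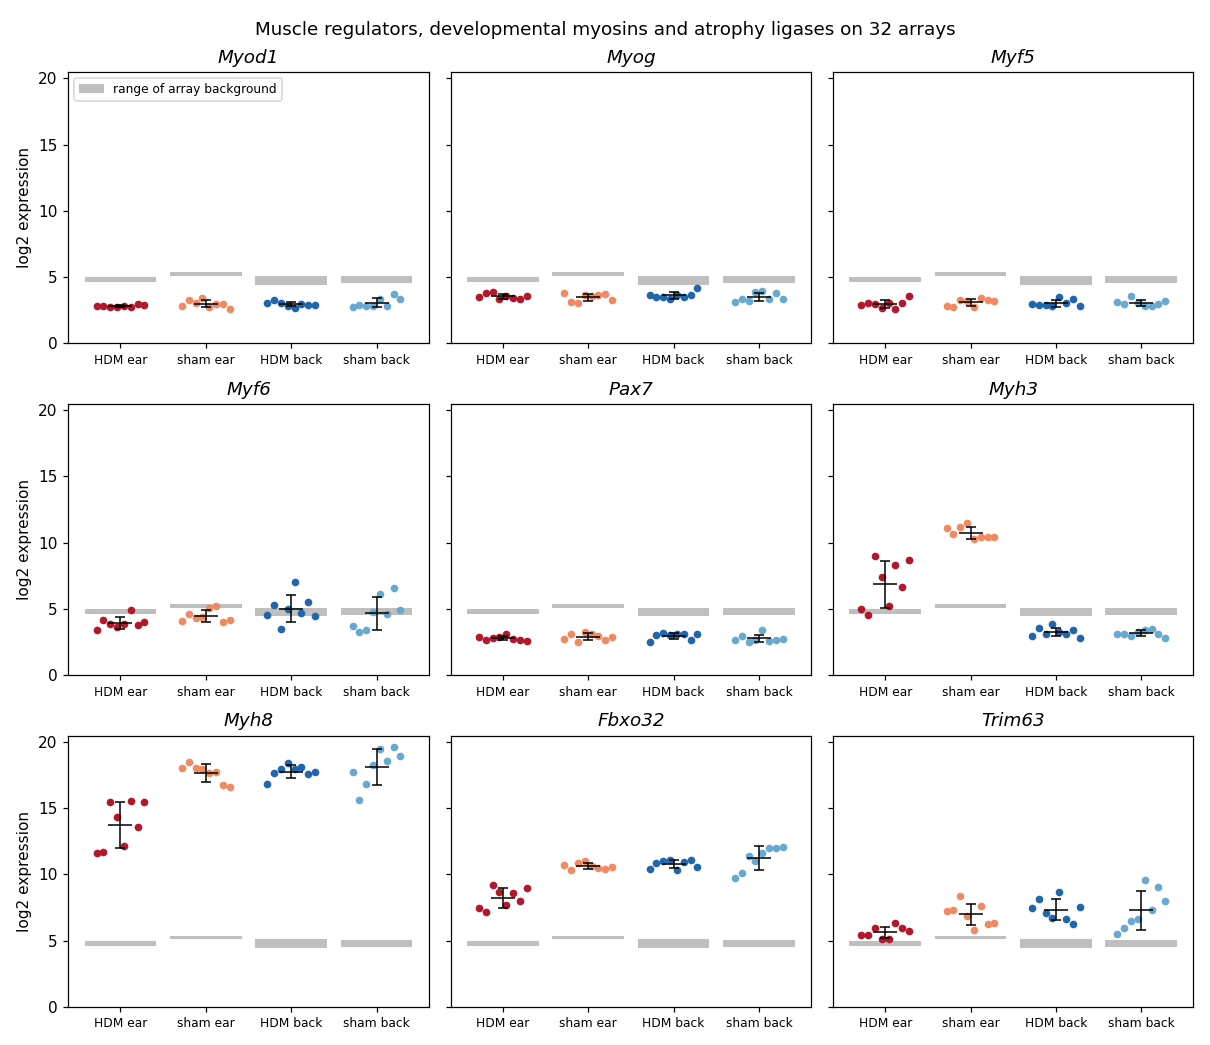
Log2 expression of each gene on each of the 32 arrays, HDM left of sham within each tissue; points are single mice in the order of their numbers, black marks are group means with the SD (n = 8), and grey bars span the background of the arrays of that group. Myod1, Myog, Myf5 and Pax7 stay under the grey bars in every group, while Myh3, Myh8 and Fbxo32 lie lower on every HDM ear array than on any sham ear array.

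Pax7, Myf5, Myod1 and Myog, which mark stem cells and the steps towards fusion, were below background on 32 of 32 arrays. Their values ran from 2.47 to 4.17, under the lowest array background of 4.43. Myog averaged 3.53 in HDM ear and 3.47 in sham ear, and Pax7 averaged 2.78 in HDM ear and 2.88 in sham ear. In back skin Myog averaged 3.61 in HDM and 3.48 in sham mice, and Pax7 2.96 in HDM and 2.77 in sham mice. Differences between such values carry no level, and no fold is given. A change in these transcripts was not detectable on these arrays.

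Myf6, the regulator of mature fibres, was above background on 7 of 32 arrays, all from back skin. In HDM back skin it ran from 3.51 to 7.03 with a mean of 4.99 ± 1.02, against 3.24 to 6.61 and 4.66 ± 1.23 in sham back skin (SD, n = 8 each). The groups overlapped, with 3 HDM and 4 sham arrays above background and the highest value in HDM mouse 5. The difference was 0.33 ± 0.41 (± standard error; adjusted p = 0.665, limma), and it was -0.077 without sham back mice 1 and 2. In ear all 16 arrays were below background, with means of 3.93 ± 0.45 in HDM ear and 4.47 ± 0.46 in sham ear. HDM ear against HDM back skin passed the threshold for Myf6 (-1.06 ± 0.41, adjusted p = 0.0488, limma), at least 1.12-fold lower. That call was lost in 22 of 32 fits that left out a single array, and the difference was -0.48 (adjusted p = 0.210) with values under background raised to it.

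Myh3, the embryonic myosin heavy chain, was a feature of ear and not of back skin. It ran from 4.56 to 8.98 with a median of 7.01 in HDM ear, against 10.25 to 11.52 with a median of 10.55 in sham ear. No HDM ear reached the lowest sham ear, and the lowest values came from mice 2, 1 and 5, whose mature muscle means were also the 3 lowest of the group and whose neutrophil means were among its 4 highest. The mean was 6.85 ± 1.76 in HDM ear and 10.75 ± 0.46 in sham ear (SD, n = 8 each). Myh3 was thus lower by 3.90 ± 0.44 on the log2 scale, with 8 of 8 HDM ears below the sham mean and an adjusted p of 6.26e-08 (limma). In back skin it lay below background on every array, at 3.25 ± 0.33 in HDM mice and 3.15 ± 0.23 in sham mice.

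The site difference of Myh3 was present without HDM. Sham ear exceeded sham back skin by at least 65.7-fold (adjusted p = 4.72e-15, limma), the background standing in for back skin. HDM ear still exceeded HDM back skin, by at least 4.04-fold (adjusted p = 1.12e-07, limma). Myh3 was the only gene of the 9 called higher in ear than in back skin in either comparison. Over all rows 29.7% were called between the sham tissues, 15.6% of all rows higher in ear, and 28% between the HDM tissues, 16.8% of all rows higher and 11.2% lower in ear. Myf6, Myh8, Fbxo32 and Trim63 were lower in HDM ear than in HDM back skin, as given with each gene.

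Myh8, the perinatal myosin, was bright on all 32 arrays. It ran from 11.61 to 15.56 in HDM ear, with a mean of 13.74 ± 1.72, against 16.60 to 18.48 and 17.66 ± 0.66 in sham ear (SD, n = 8 each). Every HDM ear was below every sham ear, and mice 1, 2 and 5 were again lowest. The difference was -3.93 ± 0.55 (adjusted p = 1.80e-06, limma). In back skin Myh8 ran from 16.82 to 18.39 in HDM mice, with a mean of 17.78 ± 0.46, against 15.63 to 19.62 and 18.14 ± 1.37 in sham mice. These groups overlapped fully (-0.36 ± 0.55, adjusted p = 0.734), and the lowest sham array was mouse 2. Without sham back mice 1 and 2 the difference was -0.84 ± 0.54 (adjusted p = 0.341, limma). Skeletal myosin heavy chain genes are near-identical paralogs, and probes of the Myh8 row may also take up adult myosin RNA, so the Myh8 value is uncertain.

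Across sites, Myh8 did not show the pattern of Myh3. Sham ear and sham back skin differed by -0.47 ± 0.55 (95% interval -1.59 to 0.65, adjusted p = 0.576, limma), so a difference up to the ends of that interval cannot be told from none. Without sham back mice 1 and 2 it was -0.96 ± 0.54 (adjusted p = 0.206). HDM ear lay below HDM back skin by 4.04 ± 0.55 on the log2 scale (-4.04, adjusted p = 7.47e-07). Over 32 arrays, the deviations of Myh8 from its group means were most like those of the adult fast myosin Myh4 (Pearson r = 0.957), the fast fibre calcium pump Atp2a1 (0.938), the M-band protein Myom2 (0.934), the glycogen phosphatase subunit Ppp1r3a (0.894) and the kinase subunit Prkaa2 (0.892). These are descriptions over arrays that share punch and chip, with no test, and they pool the HDM ears, which fall into 2 sets, and sham back mice 1 and 2.

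Fbxo32, the atrogin-1 ubiquitin ligase, was lower in HDM ear. It ran from 7.16 to 9.21 with a mean of 8.22 ± 0.75 in HDM ear, against 10.37 to 11.02 and 10.63 ± 0.23 in sham ear (SD, n = 8 each). The groups did not overlap, and mice 2, 1 and 5 were lowest as for the myosins. The log2 value fell by 2.41 ± 0.29 (adjusted p = 2.12e-07, limma). In back skin it ran from 10.33 to 11.13 in HDM mice, with a mean of 10.80 ± 0.32, against 9.75 to 12.05 and 11.25 ± 0.88 in sham mice. The 2 lowest sham arrays were mice 1 and 2. The back skin difference was -0.44 ± 0.29 (adjusted p = 0.347), and without these mice it was -0.88 ± 0.25 and passed the threshold (adjusted p = 0.0148).

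Fbxo32 was lower in HDM ear than in HDM back skin by 2.58 ± 0.29 on the log2 scale (-2.58, adjusted p = 2.53e-08, limma). Sham ear minus sham back skin was -0.62 ± 0.29 (adjusted p = 0.112), and -1.06 (adjusted p = 0.00129) without sham back mice 1 and 2. The genes whose deviations from group means were most like those of Fbxo32 over the 32 arrays were outside the muscle lists used here. They were the R-spondin receptor Lgr4 (Pearson r = 0.916), Tacc2 (0.862), Sox9 (0.850), a transcription factor of hair follicle epithelium, Adgra3 (0.848) and Tbx1 (0.840). These values take in sham back mice 1 and 2, which were low in both Fbxo32 and hair follicle genes, and the HDM ears of both sets. Over the 16 ear arrays alone, a choice made after seeing the values, Myh3 came first for Fbxo32 (r = 0.968), followed by the basal keratin Krt15 (0.956). The ear arrays also pool both sets of HDM ears, which varied more than sham ears and so weigh more in these values. The SD was 1.76 in HDM ear against 0.46 in sham ear for Myh3, and 0.75 against 0.23 for Fbxo32. The part of that split in these values was not tested. The median r of Fbxo32 with the mature muscle genes over the 32 arrays was 0.60, against 0.78 for Myh8 and 0.71 for Trim63. Over the 16 ear arrays it was 0.63, against 0.79 for Myh8 and 0.60 for Trim63. The order of Fbxo32 and Trim63 thus depended on the arrays used.

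Trim63, the MuRF1 ubiquitin ligase of the sarcomere, fell less. It ran from 5.15 to 6.33 with a mean of 5.63 ± 0.42 in HDM ear, against 5.82 to 8.38 and 6.98 ± 0.83 in sham ear (SD, n = 8 each). The groups overlapped, since HDM ears 3, 6 and 7 lay above the lowest sham ear, mouse 5, although 8 of 8 HDM ears were below the sham mean. The difference was -1.34 ± 0.45 (adjusted p = 0.0207, limma), and -1.14 (adjusted p = 0.0542) without sham ear mouse 3. In back skin Trim63 ran from 6.27 to 8.65 in HDM mice, with a mean of 7.32 ± 0.80, against 5.49 to 9.61 and 7.31 ± 1.47 in sham mice. These groups overlapped fully (0.02 ± 0.45, adjusted p = 0.989), with the 2 lowest values again in sham mice 1 and 2. Without these mice the difference was -0.52 ± 0.43 (adjusted p = 0.484), and that between sham ear and sham back skin was -0.86 (adjusted p = 0.143) in place of -0.33 (adjusted p = 0.643). HDM ear minus HDM back skin was -1.69 ± 0.45 (adjusted p = 0.00441, limma). Over all arrays, the genes most like Trim63 were muscle genes. They were the fast light chain Mylpf (r = 0.817), Pdlim3 (0.807) and the muscle phosphoglycerate mutase Pgam2 (0.803). The fast troponin Tnni2 (0.800) and the tropomyosin Tpm2 (0.798) came next. These values take in sham back mice 1 and 2 and the HDM ears of both sets. Over the 16 ear arrays alone, a choice made after seeing the values, Kcng1 came first for Trim63 (r = 0.858). Mylpf (0.853), Fam186a (0.830), Pvalb (0.825) and Tpm2 (0.821) followed. Mylpf and Tpm2 were thus named with either choice of arrays, and the other genes were not.

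The effect of HDM was then compared between the sites, as the ear difference minus the back difference. It was -4.01 ± 0.62 for Myh3 (adjusted p = 0.000103, limma), which had no level in back skin to lose. It was -3.57 ± 0.78 for Myh8 (adjusted p = 0.00309) and -1.96 ± 0.41 for Fbxo32 (adjusted p = 0.00232). Trim63 missed the threshold at -1.36 ± 0.64 (adjusted p = 0.183), so its ear fall is not shown to differ from its back skin value, and it was -0.83 ± 0.59 (adjusted p = 0.432) without sham back mice 1 and 2. These 3 calls of 9 stand beside 10.1% of all rows, with 3.37% more negative in ear.

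**Figure D2:**
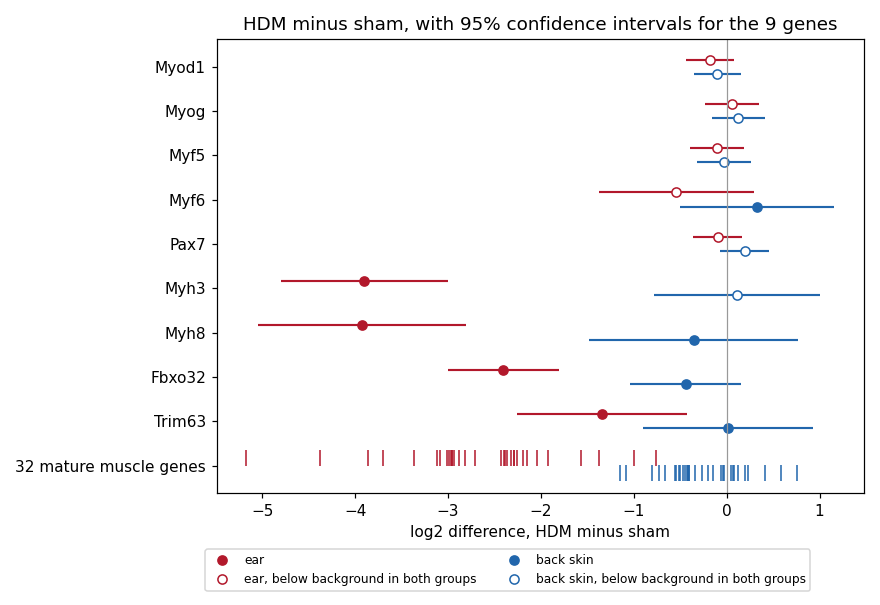
Log2 difference between HDM and sham for the 9 genes in ear (red) and back skin (blue), with 95% confidence intervals; open circles are genes below background in both groups, and ticks in the lowest line are the 32 mature muscle genes. Myh3 at -3.90 and Myh8 at -3.93 lie near the lower end of the muscle genes in ear, Fbxo32 at -2.41 lies amid them and Trim63 at -1.34 near their upper end, while the back skin intervals all cover 0.

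The mature muscle genes set the scale for these falls. In ear, 30 of the 32 fell and none rose (limma), with a median difference of -2.57, against -0.02 over all rows. The fast myosin Myh4 averaged 12.06 ± 1.92 in HDM ear and 17.24 ± 0.95 in sham ear (-5.17 ± 0.62), and the calcium buffer Pvalb 5.00 ± 0.97 in HDM ear and 9.38 ± 1.17 in sham ear (-4.38 ± 0.64, with 5 of 8 HDM ears below background). Skeletal actin Acta1 fell by 2.33 and the creatine kinase Ckm by 2.89 on the log2 scale. Of these 32 genes, 2 fell further than Myh3 and Myh8, 17 fell further than Fbxo32 and 30 further than Trim63. The levels of Trim63 in HDM ear lay near background, which limits how far it could be seen to fall. In back skin 0 of the 32 passed in either direction, with a median of -0.37, and 3 were lower without sham back mice 1 and 2, with a median of -0.82.

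Each row was next taken relative to the mean of the mature muscle genes on the same array. All rows share the noise of that mean, so p-values and intervals on this scale may be too small and too narrow. Fbxo32 then differed by 0.24 ± 0.51 between HDM and sham ear (95% interval -0.77 to 1.25, adjusted p = 0.640, limma), so its ear fall was not told from that of the muscle genes. Trim63 was higher by 1.30 ± 0.51 on that relative scale (adjusted p = 0.0118), as were 97.8% of all rows, since most rows did not fall with muscle and 97.9% were called in either direction. A relative rise of Trim63 thus says only that it fell less than the muscle mean, and its level near background in HDM ear limited the fall that could be measured. Myh3 was lower by 1.26 ± 0.53 (-1.26, adjusted p = 0.0182) and Myh8 by 1.28 ± 0.51 (-1.28, adjusted p = 0.0129), a direction that 0.054% of all rows shared. Both lost the call against the median of the same genes, at -1.08 (adjusted p = 0.0954) for Myh3 and -1.10 (adjusted p = 0.0879) for Myh8. In back skin 0 of the 9 passed on this scale (limma), against 1.5% of all rows. For the difference between the sites 6 of the 9 passed, as did 95.8% of all rows, and Myh3 was the gene called more negative in ear (-1.62 ± 0.74, adjusted p = 0.0323), a call lost with the median reference (adjusted p = 0.0572). Between sham ear and sham back skin, 1 of the 9 passed, Myh3, against 5.48% of all rows. Its relative difference was 6.04 with values under background raised to it, since sham back skin lay below background.

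**Figure D3:**
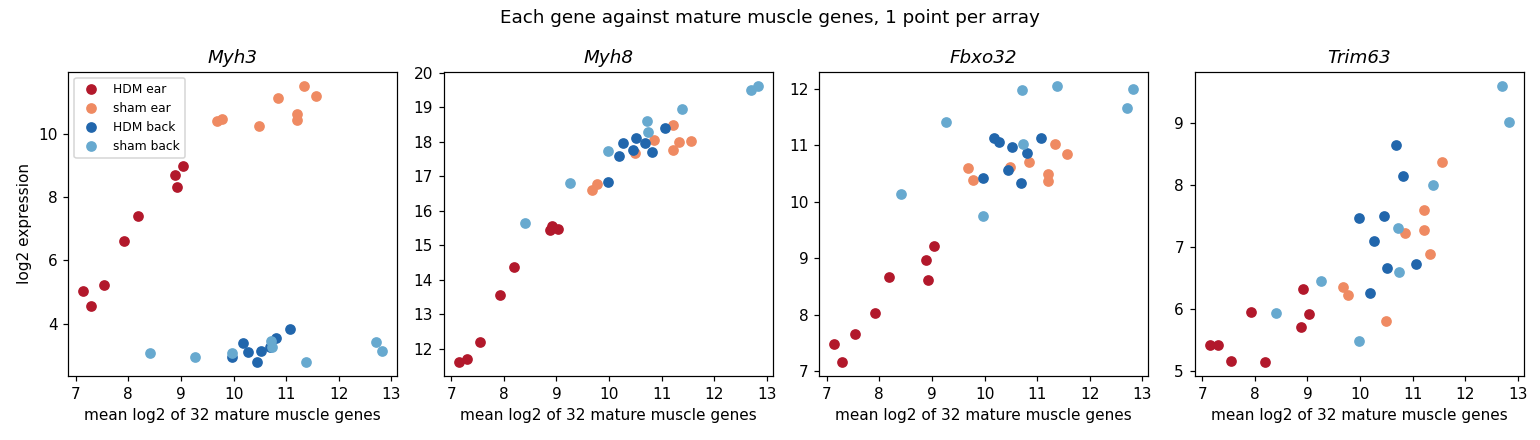
Log2 expression of Myh3, Myh8, Fbxo32 and Trim63 (vertical axes) against the mean log2 level of the 32 mature muscle genes on the same array (horizontal axes), 1 point per array, coloured by group. HDM ears hold muscle means of 7.14 to 9.04, a range that sham back mouse 2, at 8.41, shares, and the lowest Myh8 and Fbxo32 values, while Myh3 stays under 4 in back skin at any muscle mean.

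Within groups, arrays with more muscle RNA also had more of some of these transcripts. For 36 relations (9 genes in 4 groups), exact two-sided permutation tests on 8 arrays were run and adjusted over the 36, and those in HDM ear are left out for the reason given above. In sham back skin the relation with the mature muscle mean was strong for Myf6 (Pearson r = 0.975, exact permutation p = 2.48e-05, adjusted 0.000893; Spearman rho = 1.00, p = 4.96e-05, adjusted 0.00179), and r was 0.984 without the 2 arrays farthest from the median. It was close for Myh8 (r = 0.967, exact permutation p = 4.96e-05, adjusted 0.000893; rho = 0.976, p = 0.000397, adjusted 0.00476), and r was 0.960 without the 2 farthest, although the list holds adult myosins whose probes Myh8 may share. Trim63 followed at r = 0.902 (exact permutation p = 0.00300, adjusted 0.0180; rho = 0.881, p = 0.00724, adjusted 0.0435), and at 0.900 without the 2 farthest arrays. Fbxo32 did not pass (r = 0.666, exact permutation p = 0.0734, adjusted 0.189; rho = 0.690, p = 0.0694, adjusted 0.210). Myf6 lay below background on 4 of these 8 arrays, so the order of its lower values is uncertain. These relations take in sham back mice 1 and 2. Mouse 1, with a muscle mean of 9.97, stayed in when the 2 farthest arrays were left out. The relations were not computed without both of these mice.

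In sham ear Myh8 passed on r (0.901, exact permutation p = 0.00635, adjusted 0.0327) but not on rho (0.643, p = 0.0962, adjusted 0.247), and r was 0.428 without the 2 farthest arrays, so that relation rests on them. Trim63 did not pass there (r = 0.776, exact permutation p = 0.0237, adjusted 0.0875; rho = 0.762, p = 0.0368, adjusted 0.189), nor did Myh3 (r = 0.629, exact permutation p = 0.0978, adjusted 0.220) or Fbxo32 (r = 0.461, exact permutation p = 0.245, adjusted 0.484). In HDM back skin 0 of the 9 genes passed, and the nearest was Myh8 (r = 0.762, exact permutation p = 0.0243, adjusted 0.0875).

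Other genes of the atrophy pathway moved in both directions. Of 28 measured, 10 rose and 13 fell in HDM ear (limma; over all rows 16.4% rose and 15.5% fell), with a median of -0.35 against -0.02 over all rows, and Acvr2b among the lower ones was below background in both groups. The transcription factors that drive Fbxo32 and Trim63 in wasting muscle fell: Foxo1 averaged 9.67 ± 0.45 in HDM ear and 11.01 ± 0.33 in sham ear (-1.33 ± 0.19), and Foxo3 10.51 ± 0.51 in HDM ear and 11.11 ± 0.23 in sham ear (-0.60 ± 0.22, adjusted p = 0.0352). Myostatin, Mstn, a muscle-made brake on muscle growth, averaged 5.46 ± 0.70 in HDM ear and 7.83 ± 0.67 in sham ear (-2.36 ± 0.63, adjusted p = 0.00367). Pdk4, a FoxO-responsive switch of fuel use, fell by 1.79 ± 0.34. Foxo1, Foxo3 and Pdk4 fell in back skin too, where 0 of the 32 mature muscle genes passed. Whether their falls in ear concern muscle was not tested. The largest rises were those of the metallothionein Mt2 (2.54 ± 0.39) and of Cebpd, a transcription factor of the acute phase response (1.93 ± 0.34). Tnfrsf12a, the receptor of the cytokine TWEAK, rose by 1.70 ± 0.27. These genes are expressed well beyond muscle, and they rose in the same ears in which all neutrophil and macrophage markers rose, whose part in these rises was not tested.

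In back skin 5 of the 28 rose and 7 fell, where 14.7% of all rows were called, with a median of -0.25, against 0.01 over all rows. The lysosomal protease Ctsl averaged 17.27 ± 0.19 in HDM and 15.67 ± 0.72 in sham back skin (1.60 ± 0.24), and Tnfrsf12a 10.70 ± 0.41 in HDM and 9.16 ± 0.29 in sham back skin (1.54 ± 0.27). Pdk4 fell by 1.69 ± 0.34 and Foxo3 by 0.98 ± 0.22 on the log2 scale, and Foxo1 by 0.65 ± 0.19 (adjusted p = 0.0168, limma). Without sham back mice 1 and 2, 6 rose and 6 fell. The neutrophil markers rose in HDM back skin too, in 7 of 7, and their part was not tested.

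**Figure D4:**
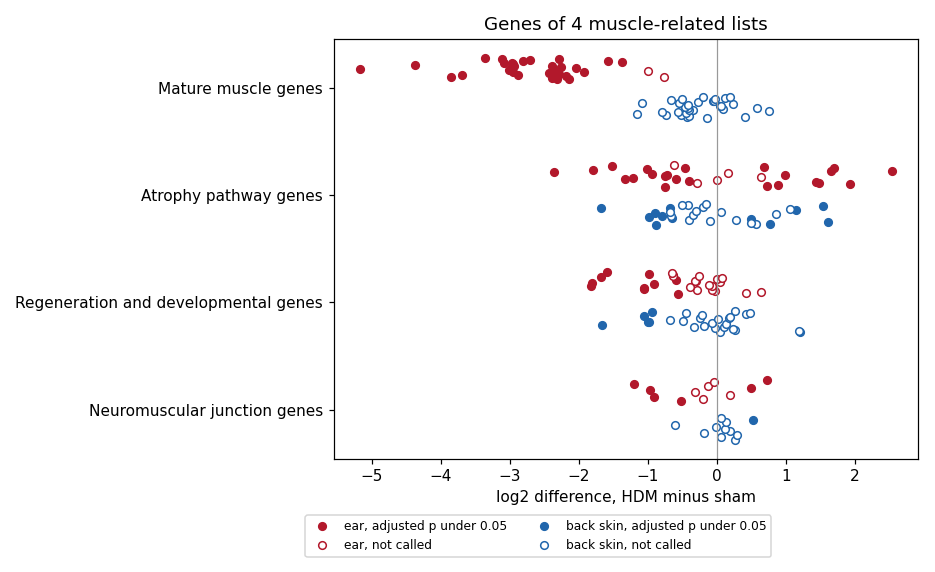
Log2 difference between HDM and sham for the genes of 4 lists in ear (red) and back skin (blue); filled points passed an adjusted p under 0.05. Mature muscle genes sit to the left of 0 in ear, atrophy pathway genes on both sides with Mt2 farthest right at 2.54, and no regeneration gene in ear is filled to the right of 0.

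Of 27 further satellite cell, regeneration and developmental muscle genes measured, none rose and 11 fell in HDM ear (limma; 16.4% and 15.5% of all rows), with a median of -0.40 against -0.02 over all rows, and 8 were below background in both ear groups, Myl6b among the 11 included. The growth factor Igf2 fell by 1.83 ± 0.42 and the muscle transcription factor Mef2c by 1.81 ± 0.31 on the log2 scale. In back skin, where no mature muscle gene passed, Igf2 fell too, and Mef2c averaged 10.74 in HDM and 11.74 in sham mice. Whether the ear falls of Igf2 and Mef2c concern muscle was not tested. Mymk, the membrane protein that myoblasts need to fuse, was below background on all arrays, at 3.18 ± 0.22 in HDM ear and 3.18 ± 0.39 in sham ear. In back skin 1 rose and 5 fell, against 14.7% of all rows called, with a median of -0.02, and 1 rose and 6 fell without sham back mice 1 and 2, with a median of -0.12. Ankrd1, a stretch and stress response protein of muscle, rose by 1.20 ± 0.37 (adjusted p = 0.0251, limma). Igf2 fell by 1.67 ± 0.42 and the adhesion molecule Ncam1 by 1.06 ± 0.37 on the log2 scale. Ncam1 only just passed the threshold (adjusted p = 0.0498, limma).

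Among 11 genes of the neuromuscular junction and of denervated muscle, 2 rose and 4 fell in HDM ear (limma), with a median of -0.21. The share that rose is near the 16.4% of all rows that did, and 15.5% of all rows fell. The transcription factor Runx1 rose by 0.72 ± 0.21 and the deacetylase Hdac4 by 0.50 ± 0.16, and both are also expressed outside muscle. The junction kinase Musk fell by 1.21 ± 0.24 and Gdf5 by 0.96 ± 0.29 on the log2 scale. The receptor subunit Chrna1 was below background in all HDM ears and above it in 1 of 8 sham ears, so no size is given for its call. The fetal receptor subunit Chrng was below background on all arrays, at 3.39 ± 0.24 in HDM ear and 3.20 ± 0.23 in sham ear. In back skin Rapsn alone passed, while below background in both groups, so no level is given.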

How the data were processed

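Total RNA from punches of ear and back skin, held in RNAlater for at least 18 h, was labelled from 100 ng and hybridised, per the labels' protocols. Per the submitters' processing notes, the authors' deposited log2 values came from RMA as run in the Transcriptome Analysis Console. Which versions, genome build and annotation were used is not given in the sources used here. The values run from 1.71 to 19.93, a wide range for RMA, so folds would be off if a rescaling followed.

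Of 28846 rows, 6640 array controls were left out, and 22206 were tested. GEO's platform annotation gave 1 symbol for 19572 rows and none for 2634, and where several rows shared a symbol the brightest stood for it. With limma 3.58.1 (R 4.3.3), 4 group means were fitted over the 32 arrays (lmFit, eBayes, two-sided, 32.1 total degrees of freedom, no covariate), and p-values were adjusted by Benjamini-Hochberg over all tested rows at a threshold of 0.05. Differences are ± standard error, with a spread per row pooled over the groups, although HDM ears varied more than sham ears for the myosins. The fit was tested on simulated data for HDM against sham in ear, with the same spread in every group. That test does not bear on unequal spread or on the relative comparison. A gene at or under the array background on all 8 arrays of a group has only a bound there, and "at least N-fold" is against the background. The relative comparison subtracted each array's mature muscle mean, which every row then shares. Its total degrees of freedom exceed the 32.1 of the main fit, so its p-values and intervals may be too small and too narrow. The number of arrays limits the precision.

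The genes and lists were chosen with earlier results of these data known. All 9 genes are described. From each list the text names up to 4 genes by size of change among those called, and a set of named muscle and atrophy genes. The 5 genes most like a gene are those with the highest r of deviations from group means, for genes above background on at least 16 arrays, a rule that leaves out Myh3. Same-numbered arrays of different groups deviated with a mean correlation of -0.016 to 0.031, and the main fit did not pair samples by number. Such correlations cannot show whether samples of the same number came from the same animal. Alternatives covered background, dim rows, scaling, weights, variance model, blocks, muscle reference and arrays left out. P-values measure the spread between these samples.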

Additional observations from a re-analysis of the deposited data

Results flagged for a closer look

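The effect of HDM differed between the sites for 3 of the 9 genes, by a test of the difference itself (limma). The ear difference minus the back skin difference was -4.01 for Myh3, -3.57 for Myh8 and -1.96 for Fbxo32. Myh3 lay below background in both back skin groups, so its value is set by ear alone. Among 36 sets of 8 arrays, 1 array stood far from the others of its group: Myog in HDM back skin mouse 8, at 4.17. That value is itself below background, and chance flags about 1 in 20 such sets.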

How the results depend on the processing

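In ear, the falls of Myh3, Myh8 and Fbxo32 stayed past the threshold under every alternative run, the 32 left-out arrays included, and that of Trim63 under all but the fit without sham ear mouse 3. Raising values under background to it gave 8 called genes in ear, 7 for the difference between sites and 5 for sham ear against sham back skin, in place of 4, 3 and 1. By construction the added genes then carry the difference between array backgrounds (-0.38 in ear). Without sham back mice 1 and 2, 1 gene in place of 0 was called in back skin and 2 in place of 1 for sham ear against sham back skin, Fbxo32 each time. Array weights also gave 2 for the sham tissues, and leaving out single arrays gave 1 to 2. Signs turned for results that did not pass. For HDM against sham in back skin, Myf6 was -0.077 without these mice, and Trim63 was -0.52 without them, -0.15 with array weights and -0.24 to 0.34 with single arrays left out. For sham ear against sham back skin, Myf6 was 0.0056 with raised values and -0.40 to 0.082 with single arrays left out. Relative to muscle in back skin, the median as reference gave 0.26 for Myh8 and 0.17 for Fbxo32. Relative to 5 muscle genes, the sham tissues differed by 0.59 for Myf6, 0.31 for Myh8, 0.16 for Fbxo32 and 0.45 for Trim63, and with raised values by 0.0098 for Myf6. A muscle reference added after seeing the data, the mean of the 22 genes above background on all arrays, left Myh3 at -1.05 (adjusted p = 0.0712) and Myh8 at -1.08 (adjusted p = 0.0640) in ear. The causes were not tested.

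With the mouse number as a replicate block, 4 genes were called in ear (Trim63 at -1.34, adjusted p = 0.0340), 0 in back skin and 3 for the difference between sites, as without it. The block changed no call but that of Myf6 relative to muscle for the difference between sites (1.52, adjusted p = 0.0573). Each symbol had 1 row, so the mean over rows could not differ. The difference between sites needs all 4 groups, so a fit of only the groups compared gives no other value for it.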
